A study of Mus musculus with 12 samples.

Results

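The G2/M and mitosis genes were 44 genes of the last steps of the cell cycle, from the cyclins that start mitosis to the proteins that part the daughter cells. They were found by full name among the 58735 genes of an expression table of U2OS cells, a human osteosarcoma line, and all 44 were matched. The table held 12 RNA-Seq libraries in 4 groups of 3 replicates: blank cells, cells with the siRNA siSRSF1-2, cells with the siRNA siSRSF1-3, and cells with OE-LINC01134, which the series describes as LINC01134 upregulated. Both siRNAs target SRSF1, a splicing factor of the serine/arginine-rich family, and LINC01134 is a long non-coding RNA. No library of cells with a control siRNA or an empty vector was among the samples, so the effect of transfection and that of the siRNA or the overexpressed RNA cannot be told apart. Nothing in the labels says whether replicates came from separate cultures. The paper's supplementary methods name biological replicates, fewer for each condition than the 3 here, and a figure legend names 3 experimental repeats. Since these accounts differ, p-values measure the spread between these libraries, which may be technical. The labels give the organism as mouse, whereas the genes carry human Ensembl identifiers, and the samples were read as human.

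A cell enters mitosis when CDK1 is bound by cyclin A or B and freed of inhibitory phosphate by CDC25 phosphatases. FOXM1, a transcription factor, drives many genes of this program in G2, so that their transcripts accumulate late in the cycle and most are removed in G1. Kinases of the Polo and Aurora families then build the spindle, the spindle checkpoint holds the anaphase-promoting complex until every kinetochore is attached, and kinesins and cytokinesis factors divide the cell. Transcripts of these genes are widely used as a measure of proliferation, MKI67 foremost. In RNA from bulk cells, fewer cycling cells and less of these RNAs in each cycling cell cannot be told apart.

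Values are FPKM as the authors deposited them, that is, fragments for each kilobase of a gene after scaling for library size, which allows levels to be compared between genes. Between 26237763 and 32954539 reads fell on genes in a library. Libraries stood unevenly within groups. Blank replicates 2 and 3, OE-LINC01134 replicates 1 and 3, and all 3 siSRSF1-2 replicates were close to counting noise, with a chi-square over its degrees of freedom between 2.13 and 3.20, whereas the other pairs of replicates gave 63.2 to 316. Results were therefore also computed with such libraries averaged into 1. SRSF1 lay below every blank library in all 6 siRNA libraries, at FPKM of 7.09, 7.46 and 7.41 with siSRSF1-2 and 3.33, 6.81 and 7.90 with siSRSF1-3 against 35.9, 19.8 and 20.5 in blank cells (exact two-sided permutation test, p = 0.1 for each siRNA, the smallest p that 3 libraries against 3 allow). LINC01134 was between 878 and 1279 FPKM with OE-LINC01134 and between 0.497 and 0.791 in blank cells (exact two-sided permutation test, p = 0.1). Of the osteoblast lineage markers, RUNX2, ALPL, SPP1 and COL1A1 were detected, while SP7, BGLAP, IBSP and COL1A2 stayed under 0.5 FPKM in every library. PTPRC and CD3E of leukocytes and CDH5 and VWF of endothelial cells were at most 0.21 FPKM, CD14 and PECAM1 were at most 0.37, and of the epithelial markers EPCAM reached 2.43, CDH1 0.86 and KRT19 0.24 FPKM.

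Of the 44 members, 43 reached a mean of 0.5 FPKM across the libraries and were tested. PRC1, a microtubule bundler of the central spindle, was the exception, at 0.114 to 0.785 FPKM. A gene listed only by identifier, ENSG00000284946, overlaps PRC1 on the same strand and took a mean of 231 reads, and how the authors assigned reads shared by overlapping genes is not given in the sources used here. In blank cells the tested members ranged from 4.12 to 88.8 FPKM, with a median of 19.9, and each was covered by 107 to 14783 reads in every library. CDC20, UBE2C and TPX2 were the highest, at means of 88.8, 88.3 and 73.6 FPKM. The lowest of the tested members were NUSAP1 at 4.12, CDC25C at 5.08 and SGO1 at 5.28 FPKM. The near-identical copies of members, KIF4B and PTTG2, were at most 0.0967 and 0.455 FPKM, so few reads were listed under them. For 25 members another gene overlaps the locus. Strand in the counting is not stated, so reads of an antisense partner, such as those at CCNA2, CDC25C, FOXM1, KIF20A and KIF4A, cannot be told apart from the member's own. A solute carrier gene, ENSG00000213699, overlaps CENPA on the same strand and took a mean of 3087 reads, so the limit given for PRC1 holds for CENPA too.

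As a set, the members were lower than the blank mean in all 6 siRNA libraries and higher in the 3 OE-LINC01134 libraries. Relative to the mean of the blank libraries on the log2 scale, the median of the 43 tested members was -0.37, -0.34 and -0.36 in the siSRSF1-2 libraries, -0.59, -0.38 and -0.37 in the siSRSF1-3 libraries, and 0.50, 0.28 and 0.47 in the OE-LINC01134 libraries. Medians of all 17538 genes tested stayed between -0.03 and 0.07 in each library. The reads on the 44 members made up 0.375% to 0.380% of all reads on genes with siSRSF1-2, 0.262% to 0.368% with siSRSF1-3 and 0.551% to 0.614% with OE-LINC01134. Blank cells themselves spanned much of this range, at 0.587% in replicate 1 and 0.416% and 0.419% in replicates 2 and 3.

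Blank replicate 1 was above both other blank libraries for 42 of the 44 members, against 47.3% of all genes tested. The ratio of blank replicate 1 to the mean of the other blank libraries had a median of 1.42 over the members and ranged from 0.939 to 2.43. The size of the differences from blank cells thus depended on which blank library served as the reference. Against blank replicate 1, the group means of siSRSF1-2, siSRSF1-3 and OE-LINC01134 gave medians of -0.70, -0.98 and 0.03 over the tested members on the log2 scale. Against the mean of blank replicates 2 and 3, the same medians were -0.20, -0.20 and 0.55. SRSF1 shared this pattern, being highest in blank replicate 1. Whether the state of that culture or its handling had a part in this was not tested.

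**Figure D1:**
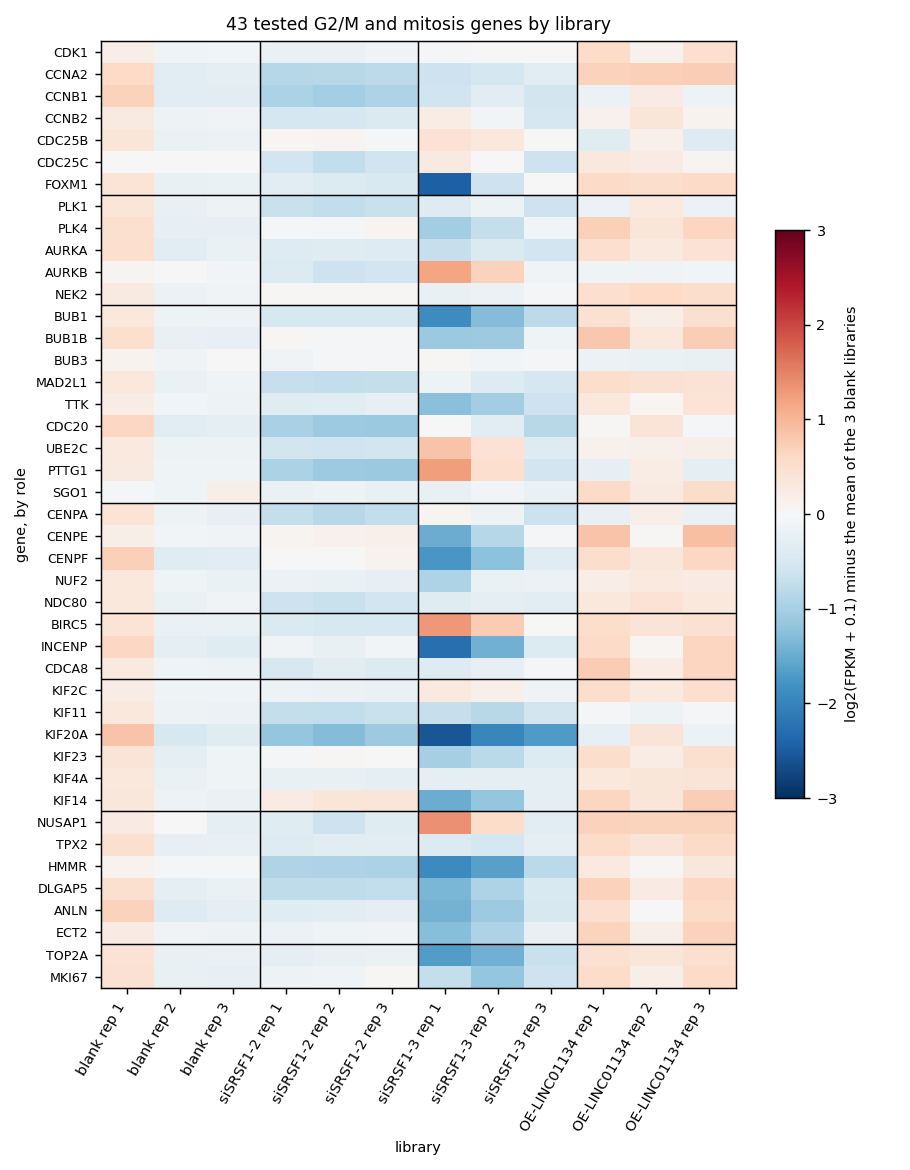
Each row is 1 of the 43 tested members, grouped by role, and each column 1 library; colour gives log2(FPKM + 0.1) minus the mean of the 3 blank libraries. Blank replicate 1 is redder than the other blank libraries in nearly every row, the siSRSF1-2 columns are alike, and the siSRSF1-3 columns differ from each other in colour and, for AURKB, UBE2C, PTTG1 and NUSAP1 among others, in sign.

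With siSRSF1-2, 15 of the 43 tested members fell and 0 rose against blank cells (limma on log2(FPKM + 0.1), Benjamini-Hochberg adjusted p under 0.05 over all genes tested). Of all 17538 genes tested, 12.8% were called lower and 14% higher. The 15 members were CCNB1, CCNB2, CDC25C, PLK1, AURKB, BUB1, MAD2L1, CDC20, UBE2C, PTTG1, CENPA, NDC80, KIF11, HMMR and DLGAP5, with log2 fold changes between -1.06 and -0.48. CDC20 and PTTG1 were the pair that also passed a log2 fold change of 1, a rule met downward by 2.73% and upward by 2.22% of all genes tested. At an unadjusted p under 0.05, 21 members were lower and 0 higher, with 19.7% and 20.6% of all genes. All 3 siSRSF1-2 libraries lay below all 3 blank libraries for 28 members and above them for 0, where 24.2% and 25.3% of all genes did so. The median log2 fold change of the members was -0.38, against 0.02 for all genes tested.

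The calls with siSRSF1-2 counted its near-identical libraries as separate replicates. Averaging these, along with blank replicates 2 and 3, left 1 siSRSF1-2 value against 2 blank values, with the spread taken from the blank values alone. Such a fit could not show which member calls hold. The members' median in it was -0.49, with blank replicate 1 weighing as much as blank replicates 2 and 3 together. Without any 1 of the siSRSF1-2 libraries, 4 members were called lower, a count for which the share of all genes is not given here. Without blank replicate 1, 23 members were called lower and 9 higher, as were 52.2% of all genes tested in either direction; the 9 were CDC25B, PLK4, NEK2, BUB1B, CENPE, CENPF, INCENP, KIF23 and KIF14.

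With siSRSF1-3, 0 of the 43 tested members were called in either direction by limma, where 0.342% of all genes tested were called upward and 0.935% downward. At an unadjusted p under 0.05, 14 members were lower and 0 higher, against 13.6% and 15.2% of all genes. The voom fit on reads recovered from the FPKM called 2 members lower, HMMR and KIF20A. The share of all genes that voom called is not given here, so this count has no background beside it. The 3 siSRSF1-3 libraries lay below every blank library for 18 members and above every blank library for 0, against 18% and 19.2% of all genes. The smallest adjusted p was 0.0555, for KIF20A. The members' median log2 fold change was -0.44, and 36 of the 43 values were below 0.

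The siSRSF1-3 libraries spread widely around these medians. The coefficient of variation within the group had a median of 26.7% over the members with siSRSF1-3 and 3.07% with siSRSF1-2, against 28.3% and 5.502% over all genes tested. Without siSRSF1-3 replicate 3, 16 members were called lower and 2, AURKB and BIRC5, higher, in a fit that called 35.9% of all genes. A fit that pooled the spread of all 4 groups called 14 members lower, along with 27.8% of all genes in either direction. Scaling also moved the values, since siSRSF1-3 replicates 1 and 2 carry a library size of 0.712 and 0.888 times their own read totals. With FPKM scaled to each library's own reads, the median of all genes tested moved to -0.26 and that of the members to -0.69, and with all libraries brought to an equal FPKM sum these became -0.43 and -0.88. The members' median was 0.43 to 0.45 below that of all genes under each of these scalings. Each scaling multiplies a library by 1 constant and moves all genes nearly alike. This gap was therefore bound to stay and lends no further support.

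**Figure D2:**
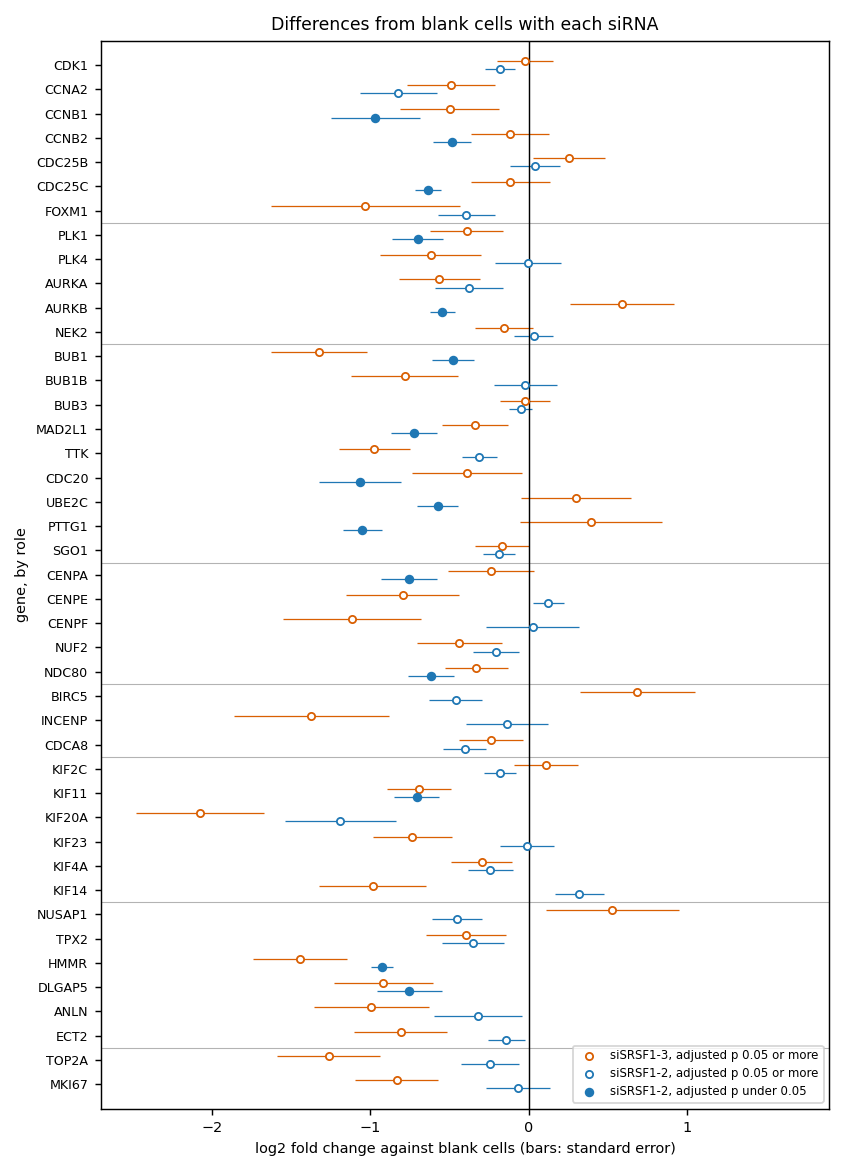
Log2 fold change of each tested member against blank cells with siSRSF1-3 (orange) and siSRSF1-2 (blue); bars are standard errors from limma and filled points have an adjusted p under 0.05. The filled points are the 15 members that fell with siSRSF1-2, and the siSRSF1-3 values are wider, from -2.08 for KIF20A to 0.69 for BIRC5.

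Both siRNA groups were compared with the same blank libraries. For 10 of the 43 members, AURKA, BUB1, TTK, NDC80, KIF11, KIF20A, KIF4A, TPX2, HMMR and DLGAP5, all 6 siRNA libraries were below all 3 blank libraries, as they were for 9.55% of all genes tested.

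Among the 7 genes of the CDK1 switch, CCNB1, CCNB2 and CDC25C fell with siSRSF1-2, while 0 of the 7 were called with siSRSF1-3. CDK1 (ENSG00000170312, chromosome 10, 60778331 to 60794852), the kinase that drives entry into mitosis, had FPKM of 43.7, 35.4 and 36.2 in blank replicates 1, 2 and 3, 33.3, 33.1 and 34.7 with siSRSF1-2, 36.8, 38.5 and 37.8 with siSRSF1-3 and 55.7, 41.99 and 53.9 with OE-LINC01134. Its siSRSF1-2 values were all just under the lowest blank value and its siSRSF1-3 values lay inside the blank range, with log2 fold changes of -0.18 (SE 0.09, adjusted p = 0.198) and -0.02 (SE 0.18, adjusted p = 0.942). CCNB1 (ENSG00000134057, chromosome 5, 69167010 to 69178245), the cyclin B1 that partners it, was at 107, 52.2 and 52.7 in blank replicates 1, 2 and 3, 34.3, 32.9 and 34.7 with siSRSF1-2, 44.1, 52.4 and 45.1 with siSRSF1-3 and 58.9, 79.3 and 60.1 with OE-LINC01134. Blank replicate 1 was far above every other library, and the siSRSF1-2 libraries were the lowest. The log2 fold change of CCNB1 was -0.97 (SE 0.28, adjusted p = 0.0497) with siSRSF1-2 and -0.50 (SE 0.31, adjusted p = 0.308) with siSRSF1-3, where the groups overlapped. CDC25C, the phosphatase that removes inhibitory phosphate from CDK1, was at 5.07, 5.05 and 5.12 in blank replicates 1, 2 and 3, 3.40, 2.98 and 3.34 with siSRSF1-2, 6.16, 5.07 and 3.29 with siSRSF1-3 and 6.33, 6.01 and 5.42 with OE-LINC01134. Its blank libraries agree closely, unlike those of most members, and all 3 siSRSF1-2 libraries lay below them. CDC25C fell by 0.64 on the log2 scale with siSRSF1-2 (SE 0.08, adjusted p = 0.00433) and gave -0.12 (SE 0.25, adjusted p = 0.769) with siSRSF1-3, whose libraries lay on both sides of the blank values.

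CCNA2, the cyclin A2 of S phase and G2, was at 47.1, 24.96 and 26.1 in blank replicates 1, 2 and 3, 17.3, 17.5 and 18.1 with siSRSF1-2, 20.2, 21.6 and 25.2 with siSRSF1-3 and 50.8, 51.4 and 52.2 with OE-LINC01134. The siSRSF1-2 libraries were below and the OE-LINC01134 libraries above all blank libraries, but blank replicate 1 came near the latter. Its log2 fold change with siSRSF1-2 was -0.82 (SE 0.24, adjusted p = 0.0522), just outside the threshold, and with siSRSF1-3 it was -0.49 (SE 0.28, adjusted p = 0.269). FOXM1 (ENSG00000111206, chromosome 12, 2857681 to 2877155) was at 38.9, 24.9 and 25.5 in blank replicates 1, 2 and 3, 23.4, 21.98 and 21.3 with siSRSF1-2, 5.26, 18.8 and 28.9 with siSRSF1-3 and 43.3, 42.4 and 43.5 with OE-LINC01134. FOXM1 had the largest ratio of highest to lowest library of all tested members within siSRSF1-3, where replicate 1 was below and replicate 3 above the lower blank libraries. With siSRSF1-2 its log2 fold change was -0.39 (SE 0.18, adjusted p = 0.155), and with siSRSF1-3 it was -1.03 (SE 0.60, adjusted p = 0.274). CDC25B, the phosphatase thought to start CDK1 activation at the centrosome, gave 0.04 with siSRSF1-2 and 0.26 with siSRSF1-3.

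**Figure D3:**
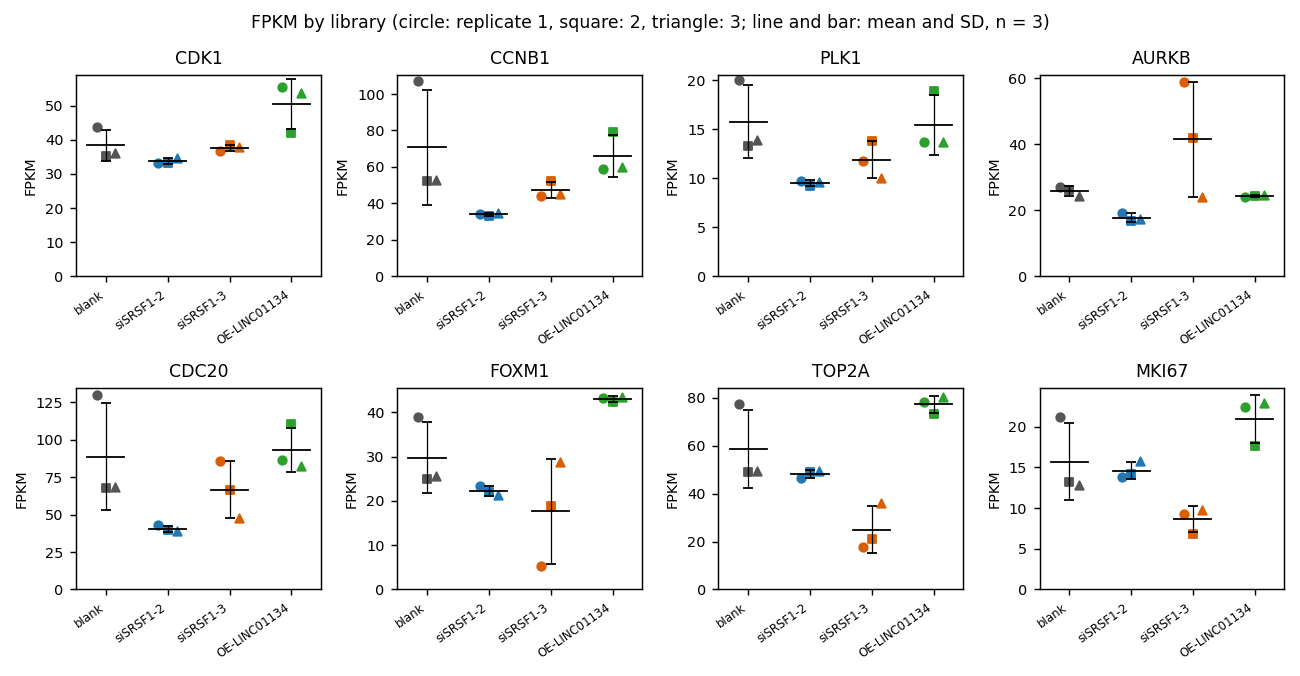
FPKM of 8 members in the 12 libraries, with each group's mean (line) and SD (bar, n = 3); symbols mark replicates 1, 2 and 3, and each axis starts at 0. Blank replicate 1 is the highest blank library in all 8 panels, the siSRSF1-2 libraries cluster tightly, and the siSRSF1-3 libraries of AURKB, CDC20, FOXM1 and TOP2A spread widely.

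Of the 5 mitotic kinases, PLK1 and AURKB fell with siSRSF1-2. PLK1 (ENSG00000166851, chromosome 16, 23677656 to 23690367), the Polo kinase of spindle assembly and mitotic exit, was at 20.1, 13.3 and 13.9 in blank replicates 1, 2 and 3, 9.69, 9.18 and 9.64 with siSRSF1-2, 11.8, 13.8 and 10.03 with siSRSF1-3 and 13.7, 18.9 and 13.7 with OE-LINC01134. The siSRSF1-2 libraries lay below all blank libraries, and the siSRSF1-3 libraries reached into the blank range. Its log2 fold change was -0.70 (SE 0.16, adjusted p = 0.0249) with siSRSF1-2 and -0.39 (SE 0.23, adjusted p = 0.276) with siSRSF1-3. AURKB (ENSG00000178999, chromosome 17, 8204733 to 8210600), the kinase of the chromosomal passenger complex that corrects wrong attachments to the spindle, was at 27.2, 26.1 and 24.3 in blank replicates 1, 2 and 3, 19.3, 16.7 and 17.2 with siSRSF1-2, 58.8, 41.8 and 23.9 with siSRSF1-3 and 23.9, 24.2 and 24.6 with OE-LINC01134. It was low in all siSRSF1-2 libraries, yet 2 of the 3 siSRSF1-3 libraries were above every blank library and the other one was just under them. The log2 fold change was -0.54 (SE 0.08, adjusted p = 0.00666) with siSRSF1-2 and 0.59 (SE 0.33, adjusted p = 0.258) with siSRSF1-3. AURKA, the related kinase of centrosomes and spindle poles, was at 52.2, 29.6 and 31.6 in blank replicates 1, 2 and 3, 27.7, 28.6 and 28.1 with siSRSF1-2, 22.6, 27.2 and 24.6 with siSRSF1-3 and 51.5, 44.5 and 49.3 with OE-LINC01134. Both siRNA groups lay below the blank libraries by a small margin, with log2 fold changes of -0.38 (SE 0.21, adjusted p = 0.241) and -0.56 (SE 0.26, adjusted p = 0.191) for siSRSF1-2 and siSRSF1-3. PLK4, which starts centriole duplication, and NEK2, a kinase of centrosome separation, gave -0.0026 and 0.03 with siSRSF1-2 and -0.62 and -0.15 with siSRSF1-3.

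The 9 genes of the spindle checkpoint and of anaphase control held the largest group of calls, with BUB1, MAD2L1, CDC20, UBE2C and PTTG1 lower with siSRSF1-2 and 0 called with siSRSF1-3. CDC20 (ENSG00000117399, chromosome 1, 43358955 to 43363203), the activator of the anaphase-promoting complex that the checkpoint inhibits, was at 130, 67.8 and 68.5 in blank replicates 1, 2 and 3, 42.8, 39.4 and 39.1 with siSRSF1-2, 85.5, 66.7 and 47.4 with siSRSF1-3 and 86.6, 110 and 82.5 with OE-LINC01134. The siSRSF1-2 libraries were under all others, and siSRSF1-3 replicate 3 came closest to them. CDC20 fell with siSRSF1-2, at -1.06 (SE 0.26, adjusted p = 0.0291), and gave -0.39 (SE 0.35, adjusted p = 0.465) with siSRSF1-3. PTTG1 (ENSG00000164611, chromosome 5, 160421822 to 160428744), securin, which holds back separase until anaphase, was at 67.6, 51.6 and 51.6 in blank replicates 1, 2 and 3, 29.1, 26.6 and 26.02 with siSRSF1-2, 135, 80.2 and 37.8 with siSRSF1-3 and 47.6, 65.4 and 45.9 with OE-LINC01134. Its siSRSF1-2 libraries were below and siSRSF1-3 replicates 1 and 2 above every blank library, while siSRSF1-3 replicate 3 was below them. The log2 fold change was -1.05 (SE 0.12, adjusted p = 0.00344) with siSRSF1-2. With siSRSF1-3 it was 0.40 (SE 0.45, adjusted p = 0.564), a value that turned to -0.05 with all libraries brought to an equal FPKM sum and to -0.04 without siSRSF1-3 replicate 1. UBE2C, the ubiquitin-conjugating enzyme of the same complex, had FPKM of 158, 117 and 66.8 with siSRSF1-3 against 107, 78.7 and 78.95 in blank cells, again with replicates 1 and 2 above and replicate 3 below. Its log2 fold change was -0.57 (SE 0.13, adjusted p = 0.0232) with siSRSF1-2 and 0.30 (SE 0.35, adjusted p = 0.575) with siSRSF1-3, the latter being -0.15 with all libraries brought to an equal FPKM sum.

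The checkpoint kinases BUB1 and TTK lay below all blank libraries with both siRNAs. BUB1, which recruits checkpoint proteins to kinetochores, was at 24.3, 17.6 and 17.7 in blank replicates 1, 2 and 3, 14.02, 14.2 and 14.1 with siSRSF1-2, 5.28, 7.96 and 11.3 with siSRSF1-3 and 27.2, 22.8 and 27.3 with OE-LINC01134. The siSRSF1-3 libraries were the lowest and the siSRSF1-2 libraries stood between them and the blank libraries. BUB1 fell with siSRSF1-2, at -0.48 (SE 0.13, adjusted p = 0.0452), and its larger difference with siSRSF1-3, -1.32 (SE 0.30, adjusted p = 0.0716), did not pass. TTK, the kinase MPS1 at the head of the checkpoint, gave -0.31 and -0.97 with siSRSF1-2 and siSRSF1-3, and BUB1B, the checkpoint protein BUBR1, gave -0.02 and -0.78. MAD2L1, the inhibitor that binds CDC20, fell with siSRSF1-2, at -0.72 (SE 0.14, adjusted p = 0.0159). BUB3, the partner of BUB1 and BUB1B, was the steadiest member, between 18.6 and 23.3 FPKM in all 12 libraries.

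At the centromere and kinetochore, CENPA and NDC80 fell with siSRSF1-2 among 5 members. CENPA, the histone H3 variant that marks centromeres, was at 28.9, 19.6 and 18.4 in blank replicates 1, 2 and 3, 13.3, 12.3 and 13.1 with siSRSF1-2, 23.3, 19.6 and 13.96 with siSRSF1-3 and 18.7, 24.6 and 19.1 with OE-LINC01134. It was lowest in the siSRSF1-2 libraries, and siSRSF1-3 replicate 3 came close to them. Its log2 fold change was -0.75 (SE 0.18, adjusted p = 0.0255) with siSRSF1-2 and -0.24 (SE 0.27, adjusted p = 0.567) with siSRSF1-3. CENPF, a large kinetochore protein of G2 and mitosis, was at 23.9, 11.3 and 11.4 in blank replicates 1, 2 and 3, 14.4, 14.5 and 15.7 with siSRSF1-2, 4.24, 6.19 and 11.3 with siSRSF1-3 and 21.2, 18.5 and 22.4 with OE-LINC01134. The siSRSF1-3 libraries were below the blank libraries, replicate 3 only barely, while the siSRSF1-2 libraries lay between blank replicate 1 and the others. CENPF gave -1.12 (SE 0.43, adjusted p = 0.152) with siSRSF1-3 and 0.03 (SE 0.29, adjusted p = 0.954) with siSRSF1-2, and the latter turned to -0.15 without blank replicate 2 or without blank replicate 3. NDC80, the kinetochore subunit that grips microtubules, fell with siSRSF1-2, at -0.62 (SE 0.14, adjusted p = 0.0255). CENPE, a kinetochore motor, and NUF2, the partner of NDC80, gave 0.12 and -0.20 with siSRSF1-2 and -0.79 and -0.44 with siSRSF1-3.

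The 3 passenger proteins that position Aurora B had 0 calls with either siRNA and parted company with siSRSF1-3. INCENP, the scaffold of the complex, was at 24.6, 13.3 and 12.4 in blank replicates 1, 2 and 3, 14.8, 13.8 and 15.1 with siSRSF1-2, 3.26, 5.83 and 11.9 with siSRSF1-3 and 23.8, 16.8 and 25.2 with OE-LINC01134. It was below all blank libraries in the 3 siSRSF1-3 libraries, with a log2 fold change of -1.37 (SE 0.49, adjusted p = 0.134), and overlapped the blank libraries with siSRSF1-2, at -0.13 (SE 0.26, adjusted p = 0.733). BIRC5, survivin, was at 129, 88.7 and 52.8 with siSRSF1-3 against 69.1, 45.6 and 45.7 in blank cells, so that replicates 1 and 2 were above the blank range and replicate 3 inside it, with 0.69 (SE 0.36, adjusted p = 0.238). CDCA8, borealin, was at 31.3, 23.2 and 22.7 in blank replicates 1, 2 and 3, 18.1, 20.4 and 19.2 with siSRSF1-2, 19.3, 21.4 and 24.4 with siSRSF1-3 and 42.9, 29.6 and 39.6 with OE-LINC01134. Its siSRSF1-2 libraries were below all blank libraries and its siSRSF1-3 libraries overlapped them, with log2 fold changes of -0.40 (SE 0.14, adjusted p = 0.0762) and -0.24 (SE 0.20, adjusted p = 0.445).

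Of the 6 mitotic kinesins, KIF11 fell with siSRSF1-2, and 5 lay below all blank libraries in every siSRSF1-3 library. KIF20A (ENSG00000112984, chromosome 5, 138178719 to 138187715), a kinesin of the central spindle, was at 15.6, 6.15 and 6.70 in blank replicates 1, 2 and 3, 3.81, 3.43 and 3.99 with siSRSF1-2, 1.38, 2.15 and 2.58 with siSRSF1-3 and 7.24, 11.3 and 7.66 with OE-LINC01134. All 6 siRNA libraries were below the blank libraries, and the siSRSF1-3 libraries were the lowest. Its log2 fold change, -2.08 (SE 0.41, adjusted p = 0.0555) with siSRSF1-3 and -1.19 (SE 0.35, adjusted p = 0.0523) with siSRSF1-2, was the largest of any member in either comparison and passed in neither. KIF11, the motor that pushes spindle poles apart, was at 17.9, 12.8 and 12.7 in blank replicates 1, 2 and 3, 8.69, 8.51 and 8.91 with siSRSF1-2, 8.74, 8.02 and 9.70 with siSRSF1-3 and 14.01, 12.9 and 13.6 with OE-LINC01134. The 2 siRNA groups were at much the same level below the blank libraries, with log2 fold changes of -0.71 (SE 0.14, adjusted p = 0.0169) for siSRSF1-2 and -0.69 (SE 0.20, adjusted p = 0.102) for siSRSF1-3. KIF14, a kinesin of cytokinesis, was at 7.40, 8.03 and 7.99 with siSRSF1-2 and 2.14, 2.74 and 5.05 with siSRSF1-3 against 7.94, 5.63 and 5.40 in blank cells, above the lower blank libraries with the former siRNA and below all of them with the latter. KIF23, KIF4A and KIF2C gave -0.74, -0.30 and 0.11 with siSRSF1-3 and -0.01, -0.24 and -0.18 with siSRSF1-2.

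Among the spindle assembly and cytokinesis genes, HMMR and DLGAP5 fell with siSRSF1-2. HMMR (ENSG00000072571, chromosome 5, 163460203 to 163491945), a spindle pole protein also known as a hyaluronan receptor, was at 11.1, 10.1 and 9.98 in blank replicates 1, 2 and 3, 5.48, 5.46 and 5.36 with siSRSF1-2, 2.68, 3.32 and 5.93 with siSRSF1-3 and 12.8, 10.8 and 13.2 with OE-LINC01134. Its 3 blank libraries were close to each other and all 6 siRNA libraries were well below them. HMMR fell with siSRSF1-2, at -0.93 (SE 0.07, adjusted p = 0.00126), the smallest adjusted p among the members, and gave -1.45 (SE 0.30, adjusted p = 0.0601) with siSRSF1-3. DLGAP5, a stabiliser of kinetochore fibres, gave -0.75 (SE 0.20, adjusted p = 0.0406) with siSRSF1-2 and -0.92 with siSRSF1-3. TPX2, which activates AURKA on the spindle, ANLN, a scaffold of the contractile ring, and ECT2, the exchange factor that starts its assembly, gave -0.40, -0.99 and -0.81 with siSRSF1-3 and -0.35, -0.32 and -0.14 with siSRSF1-2. NUSAP1, a microtubule bundler, was the exception in this group, at 10.7, 5.97 and 3.23 with siSRSF1-3 against 4.86, 4.12 and 3.36 in blank cells.

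TOP2A and MKI67, which shape and coat mitotic chromosomes, were lower than in all blank libraries with siSRSF1-3 but not with siSRSF1-2. TOP2A (ENSG00000131747, chromosome 17, 40388516 to 40417950), topoisomerase II alpha, was at 77.5, 48.8 and 49.7 in blank replicates 1, 2 and 3, 46.5, 49.00 and 49.6 with siSRSF1-2, 17.8, 20.9 and 36.3 with siSRSF1-3 and 78.2, 73.3 and 80.3 with OE-LINC01134. The siSRSF1-2 libraries were near blank replicates 2 and 3, and the siSRSF1-3 libraries were all below them. Its log2 fold change was -1.26 (SE 0.33, adjusted p = 0.0865) with siSRSF1-3 and -0.24 (SE 0.18, adjusted p = 0.364) with siSRSF1-2. MKI67 (ENSG00000148773, chromosome 10, 128096659 to 128126385), the antigen Ki-67, was at 21.1, 13.2 and 12.8 in blank replicates 1, 2 and 3, 13.8, 14.2 and 15.7 with siSRSF1-2, 9.31, 6.80 and 9.82 with siSRSF1-3 and 22.4, 17.6 and 22.9 with OE-LINC01134. The siSRSF1-3 libraries were again below all blank libraries, while the siSRSF1-2 libraries lay between blank replicate 1 and the other blank libraries. MKI67 gave -0.83 (SE 0.26, adjusted p = 0.112) with siSRSF1-3 and -0.07 (SE 0.20, adjusted p = 0.828) with siSRSF1-2, a value that became 0.17 without blank replicate 1 and 0.06 with all libraries brought to an equal FPKM sum.

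The members differed by gene length, and in opposite directions with the 2 siRNAs. The lengths in the table ran from 1286 bases for UBE2C to 12807 bases for MKI67. Over the 43 tested members, Spearman's rho between length and log2 fold change was 0.55 with siSRSF1-2 and -0.58 with siSRSF1-3, where all 17538 genes gave 0.06 and -0.15. These are descriptions across genes, which share their libraries and are not replicates. With siSRSF1-2, the 21 members shorter than 3936 bases had a median log2 fold change of -0.49 and the 22 others -0.19. With siSRSF1-3 the order was turned round, at -0.17 for the shorter and -0.82 for the longer members. Scaling moves all members of a library nearly alike and leaves these differences between short and long members in place.

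Named members show the same. The 5 shortest, UBE2C, CENPA, PTTG1, CDC20 and AURKB, gave log2 fold changes between -1.06 and -0.54 with siSRSF1-2, and all 5 fell. With siSRSF1-3 they ranged from -0.39 to 0.59. The 5 longest, KIF14, BUB3, CENPE, CENPF and MKI67, ranged from -0.07 to 0.32 with siSRSF1-2 and from -1.12 to -0.02 with siSRSF1-3. In single libraries, rho over the members was 0.54 to 0.58 in the 3 siSRSF1-2 libraries. It was -0.59 and -0.60 in siSRSF1-3 replicates 1 and 2 but 0.04 in replicate 3, so the relation with siSRSF1-3 rested on the 2 libraries with the smallest library size relative to their own reads. A smooth trend of log2 fold change on length over all genes, once removed, left the members' medians at -0.29 with siSRSF1-2 and -0.53 with siSRSF1-3. The part of RNA quality or library preparation in these differences was not tested.

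**Figure D4:**
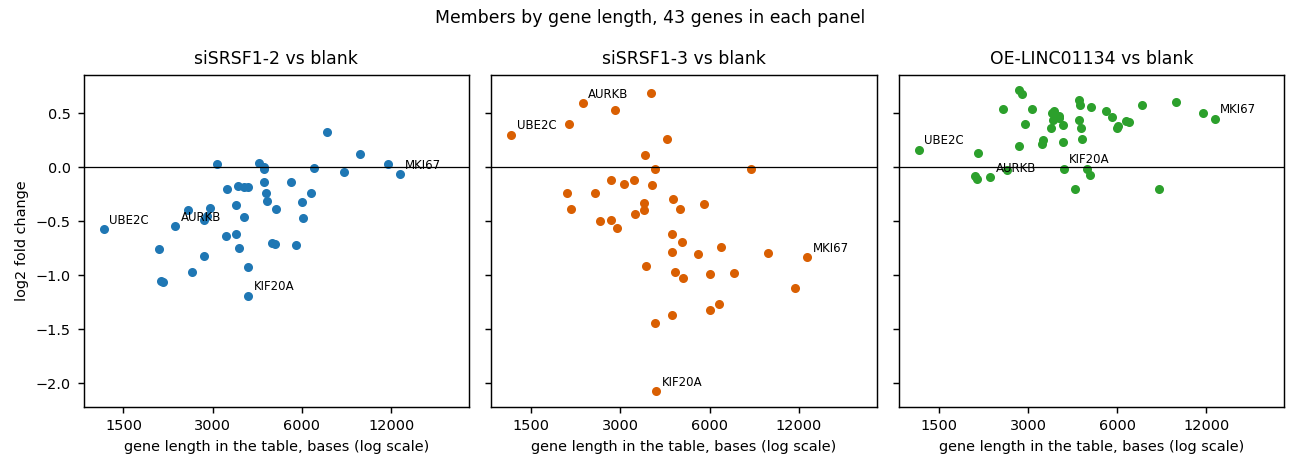
Log2 fold change against blank cells (vertical axis) by the gene length given in the table (horizontal axis, log scale) for the 43 tested members in each comparison. Points climb from left to right with siSRSF1-2 (rho 0.55), descend with siSRSF1-3 (rho -0.58) and are mostly above 0 with OE-LINC01134 (rho 0.24).

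Within the siSRSF1-3 group, the members had opposite orders. For 20 members, among them CCNA2, FOXM1, PLK4, BUB1, TTK, CENPE, CENPF, INCENP, KIF20A, HMMR and TOP2A, replicate 1 was the lowest and replicate 3 the highest of the 3 libraries. For 12 others, CCNB2, CDC25B, CDC25C, AURKB, MAD2L1, CDC20, UBE2C, PTTG1, CENPA, BIRC5, KIF2C and NUSAP1, replicate 1 was the highest and replicate 3 the lowest. The share of all genes with either order is not given here, so these counts cannot be read as particular to the members. In replicate 1, 8 of the 43 members were above and 29 below every blank library, against 41% and 42.2% of all genes tested. In replicate 2 these were 5 and 28, against 38.7% and 38.9%, and in replicate 3 they were 0 and 31, against 34.9% and 30.4%. Of the 3 libraries, replicate 3 had the highest SRSF1.

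The 2 siRNAs were also compared with each other, to see where cells with the same target differed. By limma, 0 of the 43 tested members were called in either direction, where the shares of all genes tested were 0.0342% upward and 0.0513% downward with siSRSF1-3. At an unadjusted p under 0.05, 10 members were higher and 14 lower with siSRSF1-3, against 21.9% and 20.2% of all genes. The voom fit called 0 members, a count without the share of all genes beside it. All siSRSF1-3 libraries were above all siSRSF1-2 libraries for 14 members and below them for 17, against 27% and 27.6% of all genes. PTTG1, BIRC5 and AURKB had the largest upward differences, at 1.45, 1.15 and 1.13, and KIF14, INCENP, CENPF and TOP2A the largest downward, at -1.30, -1.24, -1.14 and -1.02. With all libraries brought to an equal FPKM sum, 37 of the 43 values were below 0, against 22 as deposited, and for the 7 genes just named the direction stayed. Their adjusted p lay between 0.0785 and 0.0987. Without siSRSF1-3 replicate 3, 16 members were called higher and 16 lower, in a fit that called 61.2% of all genes. Spearman's rho with length over the members was -0.74, and -0.19 over all genes.

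With OE-LINC01134, 0 of the 43 tested members were called by limma or by voom. Of all genes tested, limma called 0.45% upward and 0.73% downward, and the share that voom called is not given here. At an unadjusted p under 0.05, 16 members were higher and 0 lower, with 14% and 12.3% of all genes. The OE-LINC01134 libraries were above all blank libraries for 10 members, CCNA2, CDC25C, FOXM1, NEK2, MAD2L1, SGO1, KIF2C, KIF4A, KIF14 and NUSAP1, and below them for BUB3 alone, against 16.8% and 13.8% of all genes. The members' median was 0.40, against 0.05 for all genes, and 34 of the 43 values were above 0. The largest were CCNA2 at 0.72 (SE 0.24, adjusted p = 0.133) and NUSAP1 at 0.67 (SE 0.16, adjusted p = 0.0764). FOXM1 gave 0.56 (SE 0.18, adjusted p = 0.123), with FPKM of 43.3, 42.4 and 43.5 against 38.9, 24.9 and 25.5 in blank cells. TOP2A, MKI67 and CDK1 gave 0.43, 0.45 and 0.39, with blank replicate 1 inside the OE-LINC01134 range for each. Without blank replicate 1, 22 members were called higher, in a fit that called 13.9% of all genes, and without OE-LINC01134 replicate 2, 7 members were, with 25.5% of all genes. When near-identical libraries were averaged, 2 values stood against 2, 1 of all genes was called and 0 members were, and the median was 0.27.

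The other genes of the pathway were taken from lists written by function, whose counts stand against the 12.8% of all genes tested that were called lower and the 14% called higher with siSRSF1-2. Of 38 S phase genes, which copy DNA before mitosis, 14 fell with siSRSF1-2 and 0 rose, and all 38 log2 fold changes were below 0, with a median of -0.63. PRIM1, the catalytic subunit of primase, gave -1.57 (SE 0.10, adjusted p = 0.000951), and RRM2, the ribonucleotide reductase subunit, -1.05 (SE 0.10, adjusted p = 0.00199). With siSRSF1-3 0 of the 38 were called, and 29 values were below 0, with a median of -0.40. S phase genes were likewise highest in blank replicate 1, where 37 of the 38 exceeded both other blank libraries. In OE-LINC01134 cells their median was 0.31.

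Of 33 other kinetochore subunits, 10 fell and 1 rose with siSRSF1-2, with a median of -0.30. HJURP, the chaperone of CENPA, fell by 0.49 and CENPH, a subunit of the inner kinetochore, by 1.07 on the log2 scale (adjusted p = 0.00551 and 0.00191), while MAD1L1, which anchors MAD2L1, rose by 0.70 (adjusted p = 0.00138). Of 27 other spindle, centrosome and cytokinesis genes, 6 fell and 0 rose. CEP55, which recruits the machinery of abscission, gave -0.48 (SE 0.10, adjusted p = 0.0199), and PSRC1, a spindle microtubule protein, -0.88 (SE 0.10, adjusted p = 0.00367). Of 20 regulators of G2 entry and of the MuvB complexes, 2 fell and 2 rose, no more than the share of all genes in either direction. Among them were CDC25A, the phosphatase active from late G1 on, at -1.01 (SE 0.13, adjusted p = 0.00455), and the checkpoint kinase CHEK2, at 0.34 (SE 0.07, adjusted p = 0.0220). Of 17 subunits and regulators of the anaphase-promoting complex, UBE2S and ANAPC15 fell, at -0.36 and -0.46, and 0 rose, so that the share that fell was near that of all genes.

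Cohesin and condensin, the rings that hold sister chromatids and fold chromosomes, had 3 of 18 genes called higher and 2 called lower with siSRSF1-2, shares near those of all genes. WAPL and PDS5A, which release cohesin, rose, at 0.27 (SE 0.05, adjusted p = 0.0155) and 0.55 (SE 0.11, adjusted p = 0.0167), and NCAPD2, a condensin subunit, fell, at -0.56 (SE 0.16, adjusted p = 0.0485). With siSRSF1-3 this list had the lowest median of the 6 pathway lists, -0.86. Of its 18 values 15 were below 0, and limma called 0. Relative to the blank mean, its median was -1.33, -0.87 and -0.30 in siSRSF1-3 replicates 1, 2 and 3. The group's median became -0.65 with the length trend removed and -1.29 with all libraries brought to an equal FPKM sum. In either direction, 11 of the 18 had an unadjusted p under 0.05, as did 5044 of all 17538 genes tested. NCAPD2 gave -1.43 (SE 0.30, adjusted p = 0.0630). The medians of the other lists with siSRSF1-3 reached up to 0.06 for the anaphase-promoting complex. That median became -0.38 with all libraries brought to an equal FPKM sum and -0.20 with FPKM scaled to each library's own reads. Of its 17 genes, 5 lay above all blank libraries and 2 below, against 19.2% and 18% of all genes, and 0 were called. CDC26, ANAPC16 and UBE2S gave 1.17, 0.99 and 0.96, although UBE2S fell with siSRSF1-2. Over all 153 genes of the 6 lists, limma called 0 with siSRSF1-3, against 0.342% of all genes upward and 0.935% downward. An unadjusted p under 0.05 was reached by 13 upward and 53 downward, against 15.2% and 13.6% of all genes, and voom called 3 downward. With OE-LINC01134 limma called 0, against 0.45% upward and 0.73% downward. There an unadjusted p under 0.05 was reached by 51 upward and 2 downward, against 14% and 12.3%, and voom called 2 upward. The share of all genes that voom called is not given here, so these voom counts have no background beside them. With siSRSF1-2 limma called 36 lower and 6 higher, where all genes gave 12.8% and 14%.

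**Figure D5:**
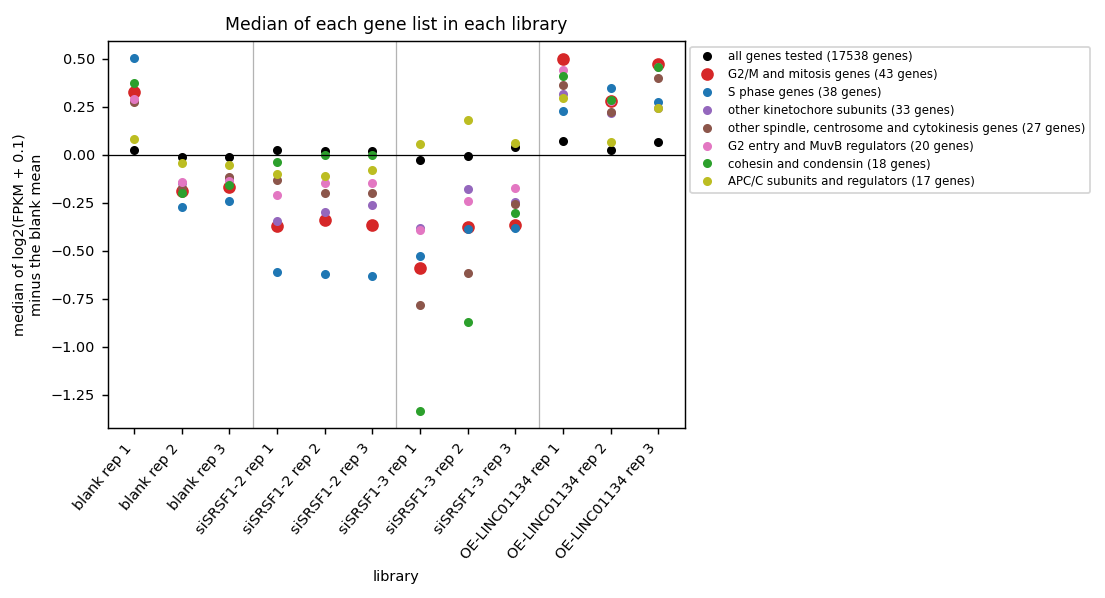
Median over each gene list of log2(FPKM + 0.1) minus the mean of the blank libraries (vertical axis) in each of the 12 libraries (horizontal axis). In blank replicate 1 the members' median is 0.33 and that of S phase genes 0.50, both above the other blank libraries, and in the siSRSF1-2 libraries S phase genes are lower (-0.61 to -0.63) than the members (-0.34 to -0.37).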

How the data were processed

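RNA from 12 libraries of U2OS cells was sequenced, 3 for each of 4 groups. The authors deposited a table of FPKM with the length and coordinates of every gene. The aligner, the counting program and the human genome build are not given in the sources used here, and the submitters' processing notes name mouse builds. The labels name a SMARTER mRNA kit and the supplementary methods another kit with poly-T selection. The methods describe siRNA transfection in another osteosarcoma line, and the authors compared groups with DESeq2.

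Reads per gene were recovered from FPKM and gene length, and 100% of values came out whole (tolerance 0.01 reads). The deposited values carry median-of-ratios factors. Depth was 26237763 to 32954539 reads per library. Symbols were matched by full name, for all 218 looked up.

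Each comparison used only its own 3 + 3 libraries. The test was limma 3.58.1 (lmFit, eBayes with trend, R 4.3.3) on log2(FPKM + 0.1). It covered 17538 genes whose FPKM averaged 0.5 or more, and a call was a Benjamini-Hochberg adjusted p under 0.05 over all of these. Fold changes are on the log2(FPKM + 0.1) scale, which understates changes of low genes. The fits were also run on simulated data with independent noise and the same spread in both groups. Those data held no near-identical libraries and no shift shared by the genes of a library, so that run cannot vouch for the calls here. SRSF1 and LINC01134 had exact permutation tests. Replicates were compared by chi-square over genes with at least 20 reads in a pair. The members and gene lists were chosen with earlier results of these data known. Values by library were given for CDK1, CCNB1, PLK1, AURKB, CDC20, TOP2A, MKI67, FOXM1 and, in each role, the member with the smallest adjusted p with each siRNA. Other values were picked to complete a role or after they were seen, such as those of BIRC5, UBE2C, KIF14 and NUSAP1. From each pathway list at most 2 genes per siRNA were named, those with the smallest adjusted p. HJURP and CEP55 were taken by their rank with siSRSF1-3, although the values given for them are with siSRSF1-2. Not every gene taken by this rule was named, TFDP1 and MELK being among those left out.

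Alternatives were pseudocounts of 1 and 0.01, a filter at a mean FPKM of 1 or none, 3 other scalings, eBayes without trend, a fit over all 4 groups, voom on recovered reads, a replicate block, omission of each library, removal of a length trend (loess, span 0.5), a log2 fold change over 1 and the unadjusted p. Averaging near-identical libraries was added after the data were seen. No human reference sequence was used here, so none is printed.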

Additional observations from a re-analysis of the deposited data

How the results depend on the processing

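Of 236 alternative values for the members' counts and medians, 206 stayed within the limits set for them, 29 moved and 1 turned its sign. Some values could not move. Median-of-ratios factors repeat the scaling that the deposited FPKM already carry, and removal of the length trend kept the p-values of the main fit. Such values raise the number that stayed. With siSRSF1-3 against blank cells, members called lower numbered 14 in a fit over all 4 groups, 2 with voom and 14 at the unadjusted p, and the median was -0.88 with an equal FPKM sum; leaving out each library gave 0 to 16 lower and 0 to 2 higher. With siSRSF1-2, members called lower numbered 4 without a filter, 3 in the fit over all 4 groups, 2 with a log2 fold change over 1 and 0 with near-identical libraries averaged, a fit of 1 value against 2 that called 0 of all genes, 1 was higher with an equal FPKM sum, and leaving out each library gave 4 to 23 lower and 0 to 9 higher. With OE-LINC01134, members called higher numbered 1 in the fit over all 4 groups and 16 at the unadjusted p, and 0 to 22 when each library was left out. Between the siRNAs, members called higher and lower numbered 5 and 8 in the fit over all 4 groups and 10 and 14 at the unadjusted p, and 0 to 16 in each direction when each library was left out. The median between the siRNAs, -0.05, was -0.62 with an equal FPKM sum, -0.35 with each library's own reads and -0.13 with the length trend removed, and -0.0552 to 0.0195 when each library was left out, above 0 without siSRSF1-3 replicate 1. The counts of calls in this paragraph are given without the share of all genes called in the same fit, so they show only how calls moved between settings. The cause of these shifts was not tested beyond the settings themselves.

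Of 1152 alternative values for single members, 993 were classed as the same, 58 as stronger and 89 as weaker. All 89 weaker values were with siSRSF1-2 against blank cells. Among the members that fell with siSRSF1-2, CCNB1 was called in 7 of 19 settings, BUB1 in 8, DLGAP5 in 10 and CCNB2 in 11. AURKB, CDC25C, HMMR and PTTG1 were called in 17, the most of any. The settings that repeat the deposited scaling or the main p-values count here too, although they could not change an adjusted p. The same settings add to the 993 values classed as the same. The other 12 values turned their sign. With siSRSF1-3 these were CDK1 without blank replicate 1 (-0.0775 to 0.075 over the libraries left out), CDC25C without siSRSF1-3 replicate 3 (-0.3088 to 0.1343), PTTG1 without siSRSF1-3 replicate 1 (-0.0351 to 0.882), and, with an equal FPKM sum, PTTG1 (-0.0498) and UBE2C (-0.1461). With siSRSF1-2 they were MKI67 with an equal FPKM sum (0.0633) and without blank replicate 1 (-0.1955 to 0.1653), INCENP without blank replicate 1 (-0.3145 to 0.176), and CENPF with near-identical libraries averaged (-0.1507) and without blank replicate 2, blank replicate 3 or siSRSF1-2 replicate 3 (-0.1525 to 0.3814).

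Replicate numbers did not pair the libraries, since deviations of libraries with the same number correlated between -0.08 and 0.04. With a replicate block, 10 members were called lower with siSRSF1-2, and 0 in the other comparisons, again without the share of all genes beside them.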
